A study of Mus musculus with 12 samples.

Results

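RNA levels of 10 genes of the Notch pathway and of arteriovenous identity were read in 562 cells, out of 14851 genes in the tables. They were taken by symbol, and all 10 had a row. They comprise the receptors Notch1 and Notch4, the ligands Dll4, Jag1 and Jag2, the target transcription factors Hes1, Hey1 and Hey2, the arterial ephrin Efnb2 and the venous Eph receptor Ephb4. Their identifiers in the tables are 18128 (Notch1), 18132 (Notch4), 54485 (Dll4), 16449 (Jag1), 16450 (Jag2), 15205 (Hes1), 15213 (Hey1), 15214 (Hey2), 13642 (Efnb2) and 13846 (Ephb4). The 562 line arose by spontaneous immortalization from a cutaneous vascular tumor of a tamoxifen-treated Tsc1 f/f;Scl-Cre mouse of the C57BL/6 strain, and every group shares this origin. Control cells, labelled wildtype, received an sgRNA against EGFP, while the KO cells carried sgRNAs against Fip200, Atg5 or Atg7 and were selected with puromycin. Each of the 4 groups has 3 libraries. The study describes clones of Fip200 KO cells, and whether a library stands for 1 clone is not given in the sources used here. The study calls the replicates independent mRNA samples and its experiments, in general, biological triplicates. For these libraries no source used here names separate cultures, so the p-values measure the spread between these samples.

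Notch receptors sit at the cell surface and are activated by Delta-like and Jagged ligands on a neighbouring cell. Cleavage then frees the intracellular domain, which joins the DNA-binding protein RBPJ and coactivators of the Mastermind family to switch on genes of the Hes and Hey families. In blood vessels, Dll4 and Notch signalling restrain tip cell formation and favour arterial identity, of which Efnb2 is a marker, while Ephb4, its receptor, marks veins and lymphatic vessels.

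Levels are given in RPKM, that is reads per kilobase of gene length, scaled to the size of the library, with 17264989 to 23627944 reads recovered per library. The labels call the tissue lymphatic endothelial cells. Of 12 pan-endothelial markers, 9 were above 1 RPKM in every library, and Vwf was under 1 RPKM in every library. Among lymphatic markers, Lyve1 ranged from 60.6 to 393 RPKM and Pdpn from 51.5 to 336 RPKM, whereas Prox1, the lymphatic master regulator, ranged from 0.0366 to 5.79 RPKM. Arterial and venous genes were found at both ends of the scale. Of the arterial genes, Gja4, Gja5 and Sox17 did not pass 0.128 RPKM in any library, while Unc5b ranged from 11.1 to 33.9 RPKM, Sox7 from 16.5 to 52.6 RPKM and Cxcr4 from 3.90 to 143 RPKM. Of the venous genes, Ackr1 and Aplnr did not pass 0.252 RPKM, while Emcn ranged from 476 to 1327 RPKM, Nrp2 from 32.3 to 91.3 RPKM and Nr2f2 from 23.7 to 60.0 RPKM. The RNA of the targeted genes was read in their own groups. It does not measure protein, and the study checked the knockouts by western blot. Rb1cc1, which encodes FIP200, was at 5.18, 6.84 and 2.06 RPKM in Fip200 KO against 6.43, 8.27 and 7.73 RPKM in control libraries, and Atg5 was at 8.53, 15.5 and 12.6 RPKM in Atg5 KO against 14.2, 11.1 and 10.6 RPKM, so both overlapped. Atg7 was at 5.40, 2.64 and 8.34 RPKM in Atg7 KO against 18.4, 25.0 and 19.8 RPKM and was called lower. It was also below every control library in Atg5 KO, at 9.99, 11.9 and 9.94 RPKM. In Fip200 KO it was at 38.3, 12.4 and 8.23 RPKM, and it was called in neither of these groups.

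The names of the libraries fall into 3 sets by their first letters, whose meaning is not given in the sources used here. Set 1 holds control replicate 1 and all Fip200 KO libraries, set 2 holds control replicates 2 and 3 with Atg5 KO replicates 1 and 2, and set 3 holds Atg5 KO replicate 3 and all Atg7 KO libraries. Set 3 has no control library, so the set and the loss of Atg7 cannot be told apart without the single Atg5 KO library of that set. The control libraries differed in their markers. Dcn, a fibroblast gene, was at 0.125, 56.9 and 15.2 RPKM in control replicates 1, 2 and 3, and Pdgfra, another, at 0.113, 9.02 and 2.26 RPKM. Of the 11 mural and fibroblast markers with a row, control replicate 2 was the highest control library for 5 and the lowest for 2, Acta2 and Tagln, genes of contractile cells, at 0.444 and 0.454 RPKM. Control replicate 2 was also the lowest control library in 10 of the 12 pan-endothelial markers and the lowest of all 12 libraries in 8 of them.

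Of the 10 genes, 8 were readily expressed or present at a low level and 2 were near the limit of detection. Ephb4 had the highest mean in each of the 4 groups, from 40.3 ± 4.29 RPKM (SD, n = 3) in Atg7 KO to 69.8 ± 12.8 RPKM in Atg5 KO libraries. In control libraries it was followed by Hes1 (42.7 ± 25.0 RPKM), Notch4 (23.8 ± 12.1 RPKM), Notch1 (23.2 ± 9.71 RPKM), Dll4 (21.5 ± 13.7 RPKM) and Efnb2 (16.6 ± 6.14 RPKM), and the ranges of each neighbouring pair in this order overlapped. Jag1, at 7.32 ± 1.53 RPKM, lay below Efnb2 with no overlap. Hey1 (0.568 ± 0.102 RPKM) and Jag2 (0.515 ± 0.388 RPKM) overlapped with each other and lay below Jag1 without overlap, and Hey2 was lowest. The spread within a group was large for several of the genes. Over the 12 libraries the highest level was 2.65 times the lowest for Ephb4, 3.22 times for Notch1, 10.1 times for Hes1 and 14.4 times for Dll4.

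**Figure D1:**
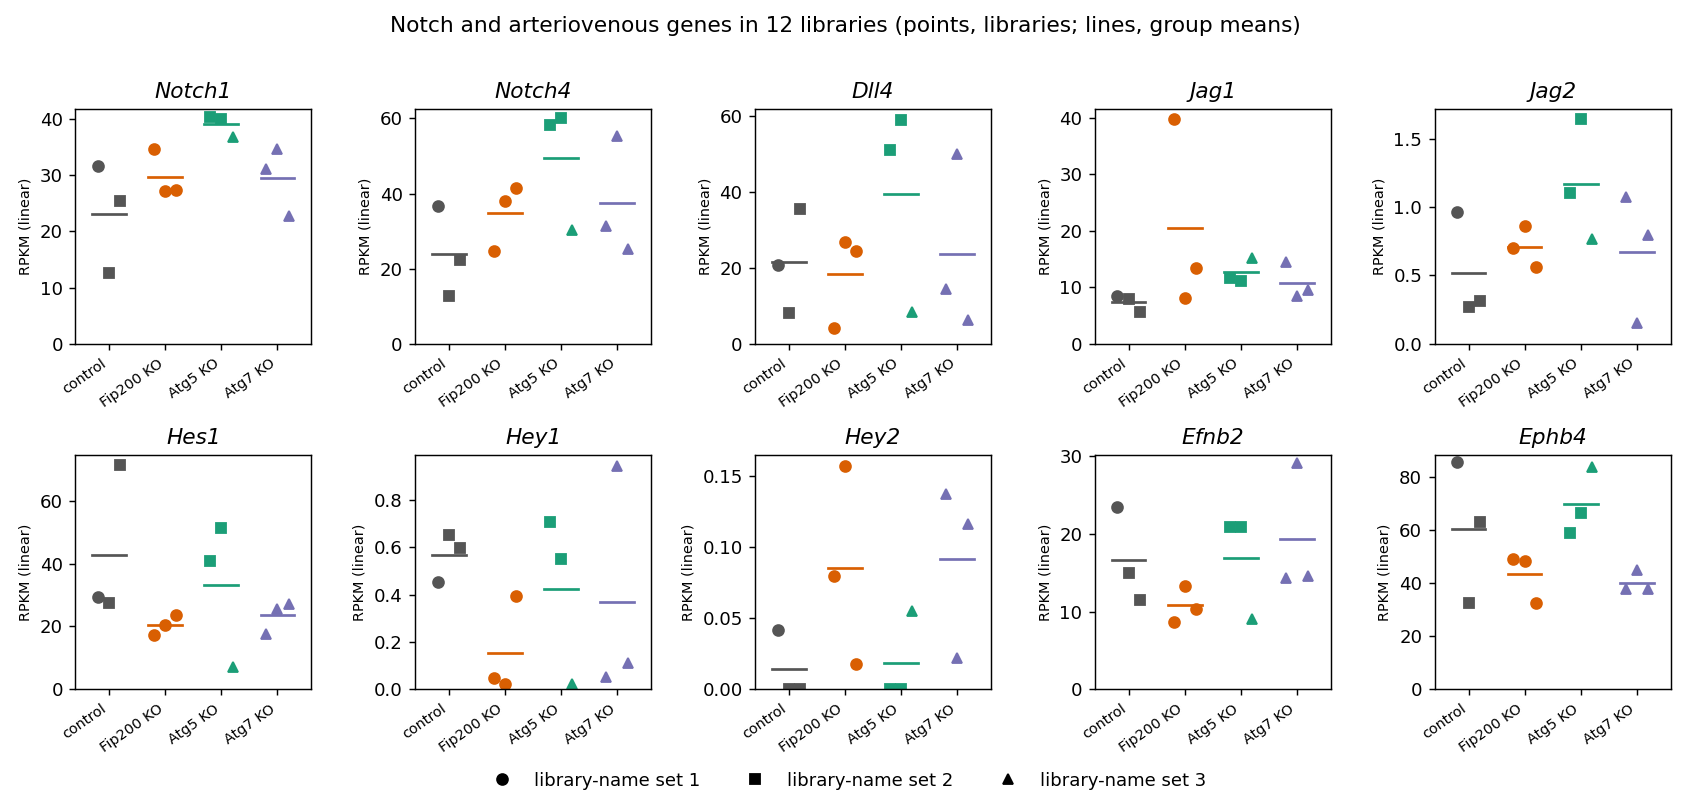
RPKM (linear axis from 0) of each of the 10 genes in the 3 libraries of each group, with a line at the group mean and the shape of a point giving the set of the library name. Notch1 and Jag1 of Atg5 KO lie above all control points, Hes1 of Fip200 KO and Atg7 KO lies below them, and Dll4 spreads from 4.09 to 59.0 RPKM.

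Control libraries were set against each KO by limma on log2 of RPKM plus 0.5. A call needed an adjusted p (Benjamini-Hochberg over all tested genes) no higher than 0.1 and a log2 fold change of 1 or more in either direction. The question was whether loss of an autophagy gene went with other levels of these genes. One of the 10 genes passed in 1 of the 3 comparisons, Notch4 in Atg5 KO cells. Among the 8 members tested in Fip200 KO, 0 were called lower, where 1.64% of all tested genes were, and 0 were called higher, where 0.347% were. In Atg5 KO cells, 0 of 9 were called lower and 1 higher, beside 6.94% and 4.31% of all tested genes, and in Atg7 KO cells 0 of 9 were called in either direction, beside 6.81% lower and 3.29% higher. At an unadjusted p under 0.05 there were 1 of 8 genes for Fip200 KO, 3 of 9 for Atg5 KO and 0 of 9 for Atg7 KO, where limma gave 16.1%, 43.8% and 33.7% of all tested genes. The tested members had median log2 fold changes of -0.03, 0.67 and 0.18 in that order, where the median of all tested genes was 0.016, 0.055 and -0.0080. All 3 comparisons share the same control libraries.

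With the adjusted p alone, at any fold change, 0 of 8 members passed in Fip200 KO, where 2.05% of all genes did, and 0 of 9 in Atg7 KO, where 25.1% did. In Atg5 KO cells 3 of 9 passed, Jag1, Notch1 and Notch4, beside 41.5% of all genes, a share of the members below that of all genes. Libraries of KO and control did not overlap, with the KO higher, for 0 of 10 genes with Fip200 KO (11.7% of all tested genes), for Notch1 and Jag1 with Atg5 KO (28.4%) and for Jag1 with Atg7 KO (19.2%). With the KO lower, they did not overlap for Hes1 and Hey1 in Fip200 KO (12.4%), where Hey1 was under the filter and not among the tested genes. This held for none of the 10 in Atg5 KO (22%) and for Hes1 in Atg7 KO (20.4%). The exact two-sided permutation test of 3 against 3 libraries gives each of these cases p = 0.1, the smallest it can give.

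**Figure D2:**
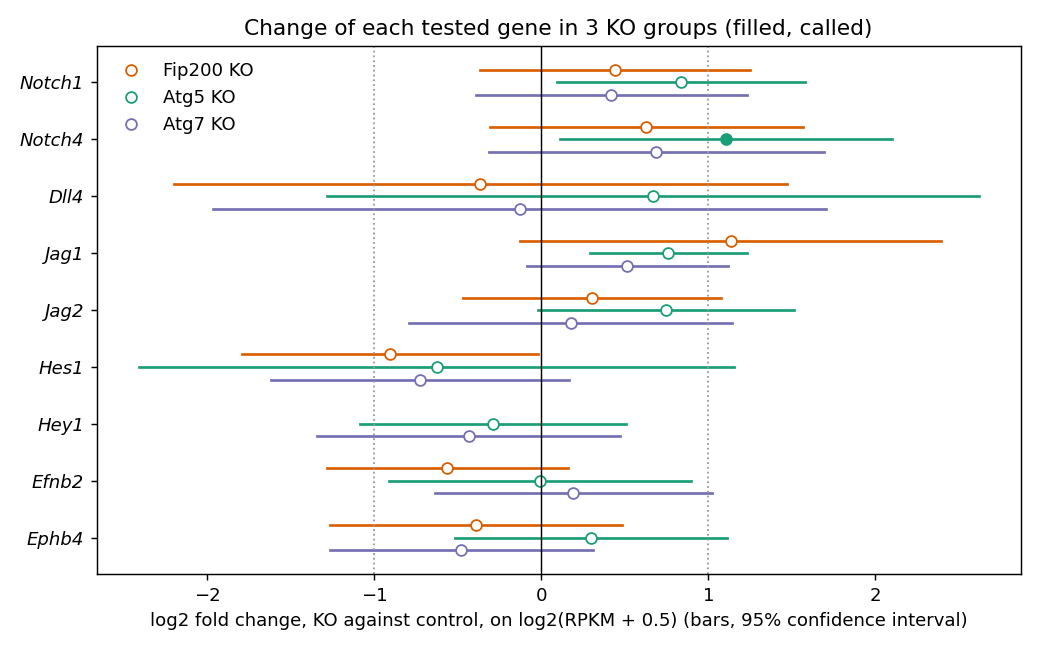
Log2 fold change of each tested gene in each KO against control (horizontal axis, on log2 of RPKM plus 0.5) with its 95% confidence interval from limma, and dotted lines at a log2 fold change of 1 in size. The filled point is Notch4 in Atg5 KO at 1.11, and the intervals of Dll4 are the widest of the plot.

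Notch4, the receptor found mainly in endothelium, was at 36.7, 12.6 and 22.2 RPKM in control and at 58.3, 60.1 and 30.3 RPKM in Atg5 KO libraries. Atg5 KO replicates 1 and 2 lay above every control library, while replicate 3 fell within the control range. Its log2 fold change reached 1.11 (standard error 0.42, 95% interval 0.11 to 2.10, adjusted p = 0.0878 from limma). The call was near both thresholds and was lost under several settings. Notch4 was no longer called without control replicate 2 (log2 fold change 0.72, adjusted p = 0.196), without control replicate 3 (1.12, adjusted p = 0.175), or without Atg5 KO replicate 1 or 2 (0.96 and 0.94, adjusted p = 0.216 and 0.214). The call was also lost with no filter on low values (adjusted p = 0.114), median-of-ratios scaling (0.101) and all 12 libraries in 1 fit (0.108 from limma). The log2 fold change stayed above 0 in each of these fits. With the library-name set as a term it was 1.79 (adjusted p = 0.0554 from limma), an estimate that rests on the libraries of set 2 alone. In set 2 the Atg5 KO libraries were at 58.3 and 60.1 RPKM and the controls at 12.6 and 22.2 RPKM. The 30.3 RPKM of set 3 has no control beside it. Control replicate 2, the lowest library for Notch4, had the highest Dcn and Pdgfra of the 12 libraries and the lowest level of 8 of the 12 pan-endothelial markers. The summed pan-endothelial markers ran from 856 to 1981 RPKM in control and from 2327 to 2607 RPKM in Atg5 KO libraries, and 5 of 11 tested markers, Cdh5, Cldn5, Egfl7, Esam and Kdr, were called higher there, beside 4.31% of all tested genes. Atg5 KO replicates 1 and 2, which held the highest Notch4 levels, were the most alike of all replicate pairs, with a chi-square of 8.19 per degree of freedom where every other pair had 48.5 or more. The 7 lymphatic markers with a row summed to 317 to 432 RPKM in control and 565 to 706 RPKM in Atg5 KO libraries, the 11 mural and fibroblast markers to 21.1 to 82.6 and 117 to 219 RPKM, the 4 blood cell markers to 52.8 to 111 and 14.8 to 16.6 RPKM and the 2 epithelial markers to 6.19 to 10.6 and 1.84 to 5.72 RPKM. In Fip200 KO and Atg7 KO libraries the pan-endothelial sums were 1825 to 2014 and 1712 to 2542 RPKM, the lymphatic sums 386 to 870.0 and 446 to 673 RPKM, the mural and fibroblast sums 22.5 to 292 and 76.1 to 412 RPKM, the blood cell sums 19.2 to 265 and 13.8 to 27.2 RPKM and the epithelial sums 0.524 to 6.19 and 0.392 to 6.28 RPKM. The mural and fibroblast sums of Atg5 KO were mostly Thy1, a surface protein of several cell types, at 118, 107 and 207 RPKM against 17.7, 11.2 and 2.36 RPKM in control. In each KO 4 genes of this list were tested. Thy1, Acta2 and Tagln were called higher in Atg5 KO and Col1a2, Tagln and Thy1 in Atg7 KO, beside 4.31% and 3.29% of all tested genes, and 0 were called in Fip200 KO. Dcn was under 1 RPKM in every KO library (log2 fold change -2.88 in Atg5 KO, adjusted p = 0.182 from limma, not called). Ptprc and Adgre1, defining blood cell markers, and Rgs5, Cspg4, Des and Col1a1 of the mural and fibroblast list were under 1 RPKM in every library. Cd68, a macrophage gene of the blood cell list, ranged from 6.95 to 263 RPKM and was called lower in Atg5 KO (log2 fold change -2.26, adjusted p = 0.0064) and Atg7 KO (-1.70, adjusted p = 0.0798 from limma). Of the lymphatic markers, Lyve1 (1.25, adjusted p = 0.0480) and Mmrn1 (2.18, adjusted p = 0.0543 from limma) were called higher in Atg5 KO, and Lyve1 in Atg7 KO (1.11, adjusted p = 0.0947 from limma). The part of these markers in the Notch4 result was not tested, and in bulk RNA fewer cells of a type and less RNA per cell cannot be told apart. In Fip200 KO libraries Notch4 was at 24.7, 38.0 and 41.5 RPKM (log2 fold change 0.63, 95% interval -0.31 to 1.57, adjusted p = 0.460 from limma). In Atg7 KO libraries it was at 31.4, 55.3 and 25.3 RPKM (log2 fold change 0.69, 95% interval -0.31 to 1.69, adjusted p = 0.296 from limma). Both groups overlapped with control.

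Notch1, the receptor needed for vascular development, was at 31.6, 12.6 and 25.4 RPKM in control and at 40.4, 39.9 and 36.8 RPKM in Atg5 KO libraries. All 3 Atg5 KO libraries were above the highest control library, with a mean of 39.1 ± 1.94 RPKM (SD, n = 3). Its log2 fold change, 0.84 with a standard error of 0.31, had an adjusted p = 0.0842 from limma and stayed below the fold change threshold. Control replicate 2 was again the lowest library of all. In Fip200 KO libraries Notch1 was at 34.7, 27.1 and 27.4 RPKM and in Atg7 KO libraries at 31.2, 34.7 and 22.7 RPKM. Both overlapped with control, with log2 fold changes of 0.44 (adjusted p = 0.546) and 0.42 (adjusted p = 0.428 from limma). Over the 12 libraries Notch1 made up 34.8% to 53.1% and Notch4 34.8% to 60.6% of the summed RPKM of Notch1 to Notch4. Notch2 made up 1.45% to 28.6%, with its highest share in control replicate 2, and Notch3 at most 1.76%. Notch2 passed the adjusted p but not the fold change in Atg5 KO cells (log2 fold change -0.88, adjusted p = 0.0815 from limma).

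Dll4, the Delta-like ligand of angiogenic endothelium, had no common direction. It was at 20.8, 8.18 and 35.6 RPKM in control libraries. The Fip200 KO libraries were at 4.09, 26.7 and 24.4 RPKM, those of Atg5 KO at 50.9, 59.0 and 8.23 RPKM and those of Atg7 KO at 14.5, 49.9 and 6.26 RPKM. Each KO group held at least 1 library below the control median and 1 above it. For Fip200 KO the log2 fold change was -0.36 (95% interval -2.20 to 1.47, adjusted p = 0.842), for Atg5 KO 0.67 (-1.28 to 2.62, adjusted p = 0.558) and for Atg7 KO -0.13 (-1.96 to 1.71, adjusted p = 0.926 from limma). The intervals allow changes past the fold threshold in both directions, so a difference of that size could not be seen with these libraries. In set 2, the Atg5 KO libraries at 50.9 and 59.0 RPKM both lay above the controls at 8.18 and 35.6 RPKM.

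Jag1, a ligand that competes with Dll4 in sprouting vessels, was at 8.48, 7.89 and 5.58 RPKM in control and at 11.7, 11.1 and 15.2 RPKM in Atg5 KO libraries. The groups did not overlap, with a log2 fold change of 0.76 (standard error 0.20, 95% interval 0.29 to 1.23, adjusted p = 0.0308 from limma), below the fold change threshold. With the library-name set as a term the log2 fold change was 0.73 and the adjusted p = 0.509, and over all settings run it ranged from 0.59 to 0.87. In Atg7 KO libraries, at 14.5, 8.50 and 9.42 RPKM, the lowest value stood just above the highest control value (log2 fold change 0.51, adjusted p = 0.201 from limma). In Fip200 KO libraries Jag1 was at 39.8, 8.13 and 13.4 RPKM, and replicate 1 alone was far above the others (log2 fold change 1.13, 95% interval -0.13 to 2.39, adjusted p = 0.349 from limma). Jag2 was low throughout, between 0.149 and 1.64 RPKM and 11 to 137 reads, and its largest log2 fold change was 0.75 in Atg5 KO (adjusted p = 0.120 from limma).

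The make-up of the ligands varied from library to library. Dll4 held 8.22% to 79.9% and Jag1 9.84% to 80.0% of the summed RPKM of Dll1, Dll4, Jag1 and Jag2. In Fip200 KO replicate 1, Jag1 held 80.0% and Dll4 8.22%, while in replicate 2 of the same group Jag1 held 20.5% and Dll4 67.4%. In Atg7 KO replicate 2, Dll4 held 79.9%, against 46.8% and 33.8% in the other libraries of the group. Each ligand sum lay between 18.5 and 80.9 RPKM, and each group of KO libraries overlapped with control in it. Dll1, which has no test call here, was at 15.2, 2.18 and 15.3 RPKM in control and between 0.895 and 3.89 RPKM in Atg7 KO libraries (log2 fold change -1.80, adjusted p = 0.138 from limma).

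**Figure D3:**
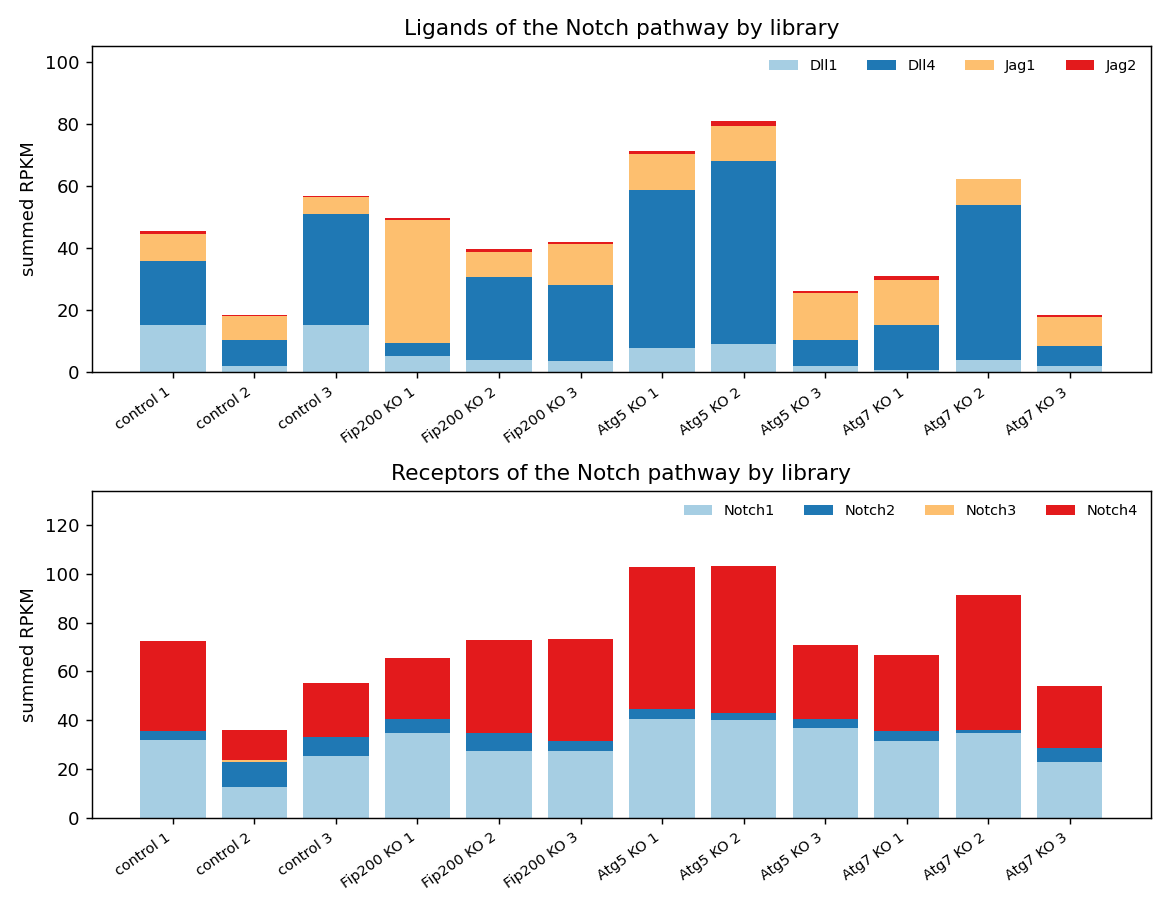
Summed RPKM (vertical axis) of the ligands Dll1, Dll4, Jag1 and Jag2 and of the receptors Notch1 to Notch4 in each of the 12 libraries, with the height of each colour giving 1 gene. Notch1 and Notch4 fill most of every receptor bar, whereas the ligand bars are mostly Dll4 in some libraries and mostly Jag1 in others, Fip200 KO replicate 1 with 80.0% Jag1 among them.

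Hes1, a Notch target that represses transcription and also answers to other pathways, was at 29.3, 27.4 and 71.6 RPKM in control, and at 17.4, 20.6 and 23.6 RPKM in Fip200 KO libraries. All Fip200 KO libraries lay below the lowest control library (log2 fold change -0.91, 95% interval -1.79 to -0.02, unadjusted p = 0.0459, adjusted p = 0.300 from limma). In Atg7 KO libraries, at 17.6, 25.7 and 27.3 RPKM, the highest value was just below the lowest control value (log2 fold change -0.73, adjusted p = 0.221 from limma). With the library-name set as a term, the log2 fold change of Hes1 in Atg7 KO turned to 1.69 (adjusted p = 0.435 from limma). In Atg5 KO libraries Hes1 was at 40.8, 51.4 and 7.08 RPKM, so the libraries of set 2 lay within the control range and the library of set 3 below it. Hes1 passed the test in none of the 3 KO groups. Within set 1 the 3 Fip200 KO values stood beside a single control value of 29.3 RPKM.

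Hey1, another target repressor, was low. Control libraries had 19, 34 and 26 reads of it, Fip200 KO libraries 2, 1 and 19, Atg5 KO libraries 30, 25 and 1 and Atg7 KO libraries 2, 38 and 5. In RPKM these were 0.454, 0.652 and 0.597 in control and 0.0458, 0.0225 and 0.393 in Fip200 KO libraries, which did not overlap. Hey1 was not tested in Fip200 KO because 2 of the 6 libraries reached 0.5 RPKM where the filter asks for 3, and in Atg5 KO and Atg7 KO the log2 fold changes were -0.29 and -0.44 (adjusted p = 0.533 and 0.463 from limma). It had 3 reads or fewer in 4 of the 12 libraries.

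Hey2, which takes part in arterial fate, had 0 to 8 reads per library, 3 or fewer in 8 libraries and 0 in 4, and passed no filter. A count of 0 allows up to 3 reads. Its promoter is printed because it was the only one of 8 member promoters in the reference table to hold the core letters bound by RBPJ, the DNA-binding partner of Notch. Hes1 and Hey1 are not in the table. The window of 250 bases before to 50 bases after the gene start was searched on both strands for TGGGAA and for the longer GTGGGAA, which contains it. Of all 32851 promoters of that length in the RefSeq table, 25.6% held TGGGAA and 6.38% held GTGGGAA. The Hey2 window, chr10:30842734-30843033 on the minus strand of GRCm38.p6, held both motifs on each strand. Capitals mark TGGGAA, which starts at base 248 on the printed strand, and its reverse complement, which starts at base 44, counted from 1 at the 5′ end.
Hey2 promoter: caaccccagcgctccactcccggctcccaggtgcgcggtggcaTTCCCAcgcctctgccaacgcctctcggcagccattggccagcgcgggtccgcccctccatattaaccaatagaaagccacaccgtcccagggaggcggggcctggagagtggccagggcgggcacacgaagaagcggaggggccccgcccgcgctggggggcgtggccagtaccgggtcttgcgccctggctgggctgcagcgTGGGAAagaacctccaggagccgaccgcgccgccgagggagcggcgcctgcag
A match is a description of the letters, and the level of Hey2 was at or near the detection limit in every group.

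Efnb2, the arterial ephrin, was at 23.4, 15.0 and 11.5 RPKM in control, 8.65, 13.3 and 10.4 RPKM in Fip200 KO, 20.9, 20.8 and 9.06 RPKM in Atg5 KO and 14.3, 29.2 and 14.6 RPKM in Atg7 KO libraries. Each KO group overlapped with control. For Fip200 KO the log2 fold change was -0.56 (95% interval -1.29 to 0.16, adjusted p = 0.408), for Atg5 KO -0.0076 (-0.91 to 0.90, adjusted p = 0.990) and for Atg7 KO 0.19 (-0.64 to 1.02, adjusted p = 0.731 from limma). Ephb4 was at 86.0, 32.4 and 63.3 RPKM in control, 49.2, 48.5 and 32.5 RPKM in Fip200 KO, 59.0, 66.4 and 84.0 RPKM in Atg5 KO and 37.7, 45.2 and 37.9 RPKM in Atg7 KO libraries. Here too each KO group overlapped with control, with a log2 fold change of -0.39 for Fip200 KO (adjusted p = 0.623), 0.30 for Atg5 KO (adjusted p = 0.533) and -0.48 for Atg7 KO (adjusted p = 0.352 from limma). Ephb4 was above Efnb2 in all 12 libraries, from 1.55 times in Atg7 KO replicate 2 to 9.27 times in Atg5 KO replicate 3. The ratio averaged 3.78 ± 1.68 (SD, n = 3) over control, 4.15 ± 1.36 over Fip200 KO, 5.09 ± 3.62 over Atg5 KO and 2.26 ± 0.617 over Atg7 KO libraries, and the ranges of the KO groups overlapped with that of control.

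**Figure D4:**
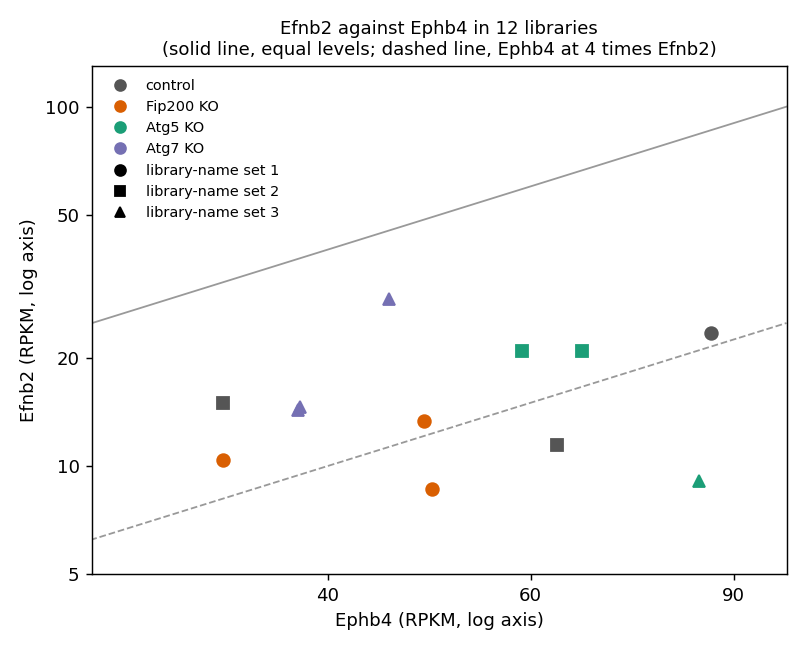
Efnb2 against Ephb4 in RPKM (both axes logarithmic) in the 12 libraries, coloured by group and shaped by the set of the library name. Every point lies below the solid line of equal levels, with Ephb4 between 1.55 and 9.27 times Efnb2.

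The KO groups were also compared with each other in a fit of all 12 libraries. Of 9 tested members, 0 were called for Atg5 KO against Fip200 KO, for Atg7 KO against Fip200 KO or for Atg7 KO against Atg5 KO, where 0% of all 12233 tested genes were called each time. At an unadjusted p under 0.05 limma gave 927, 916 and 562 genes. Ephb4 had the lowest unadjusted p of the members in 2 of these comparisons. It was higher by 0.69 on the log2 scale in Atg5 KO than in Fip200 KO (95% interval 0.01 to 1.37, unadjusted p = 0.0474, adjusted p = 0.654 from limma) and differed by -0.78 between Atg7 KO and Atg5 KO (95% interval -1.45 to -0.10, unadjusted p = 0.0289, adjusted p = 1.00 from limma). The Atg5 KO libraries were at 59.0 to 84.0 RPKM and the others at 32.5 to 49.2 RPKM.

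The wider pathway was read with 58 other genes, of which 54 had a row. Fip200 KO had 0 calls among 47 of them. In Atg5 KO cells 2 of 46 were called higher and 1 lower, and in Atg7 KO cells 2 of 47 were called higher and 0 lower. Over all tested genes 4.31% were called higher and 6.94% lower with loss of Atg5, and 3.29% higher and 6.81% lower with loss of Atg7, so the shares called higher were near those of all genes. The medians of their log2 fold changes were -0.089, -0.016 and -0.16, beside 0.016, 0.055 and -0.0080 over all tested genes. The genes called higher were the same in the Atg5 and Atg7 KO groups, Maml2, a coactivator of the Mastermind family, and Ctbp1, a corepressor. Maml2 was at 4.65, 2.04 and 2.30 RPKM in control, 7.27, 7.69 and 6.93 RPKM in Fip200 KO, 7.67, 7.69 and 6.07 RPKM in Atg5 KO and 7.06, 6.35 and 5.60 RPKM in Atg7 KO libraries. All 9 KO libraries were above the highest control library. Taking 1 KO at a time, this held for 11.7% (Fip200 KO), 28.4% (Atg5 KO) and 19.2% (Atg7 KO) of all tested genes. The share for the KO groups together was not counted, and they share the same controls. The log2 fold change of Maml2 was 1.20 for Atg5 KO (adjusted p = 0.0229), 1.04 for Atg7 KO (adjusted p = 0.0580) and 1.23 in Fip200 KO, where it was not called (adjusted p = 0.144 from limma). Ctbp1 was at 49.6, 25.4 and 36.5 RPKM in control, 79.4, 75.8 and 91.2 RPKM in Atg5 KO and 76.1, 81.1 and 64.4 RPKM in Atg7 KO libraries, with log2 fold changes of 1.18 (adjusted p = 0.0142) and 1.03 (adjusted p = 0.0392 from limma). Numbl, an adaptor that inhibits Notch, was called lower in Atg5 KO cells, at 7.09, 7.92 and 4.62 RPKM against 9.94, 20.7 and 13.5 RPKM in control (log2 fold change -1.08, adjusted p = 0.0367 from limma). Maml2 in Atg5 KO stayed called with each library left out in turn. Without control replicate 2 the log2 fold changes in Atg5 KO were 0.93 for Ctbp1 and -0.81 for Numbl, and without Atg5 KO replicate 3 that of Numbl was -0.87, none of which reaches the fold threshold. With the library-name set as a term Numbl in Atg5 KO also lost its call (log2 fold change -1.11, adjusted p = 0.170 from limma), while Maml2 and Ctbp1 in Atg5 KO kept theirs (adjusted p = 0.0077 and 0.0468 from limma). In Atg7 KO the Maml2 call was lost without control replicate 2 or 3 or KO replicate 1 or 3, and the Ctbp1 call without control replicate 2 or 3 or KO replicate 1 or 2, with adjusted p up to 0.181 and 0.130. With the library-name set as a term both calls in Atg7 KO were lost (adjusted p = 0.139 for Maml2 and 0.493 for Ctbp1 from limma).

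The Notch machinery could be tested in each KO, though some of its genes were low in single libraries. Lfng was at 0.177 RPKM in Fip200 KO replicate 1 and Maml3 at 0.354 RPKM in Atg7 KO replicate 2. Of 14 genes of receptor maturation and cleavage, all 14 were tested and 0 were called in any KO, where between 1.64% and 6.94% of all tested genes were called lower and between 0.347% and 4.31% higher, and of 9 genes each of the nuclear complex and the corepressors all were tested. Rbpj ranged from 13.9 to 37.7 RPKM over the 12 libraries. Nrarp, a feedback inhibitor induced by Notch, was at 40.3, 9.79 and 45.8 RPKM in control, 10.3, 22.1 and 30.0 RPKM in Fip200 KO, 64.0, 64.5 and 41.9 RPKM in Atg5 KO and 26.3, 37.4 and 20.4 RPKM in Atg7 KO libraries. It overlapped with control in every KO and was not called (log2 fold change 1.06 in Atg5 KO, adjusted p = 0.186 from limma).

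Other genes of arteriovenous identity were read in the same way. Of 8 tested arterial genes besides Efnb2, 1 was called lower with loss of Fip200, 1 lower and 1 higher with loss of Atg5, and 3 lower and 1 higher with loss of Atg7. For these and the lists that follow, the shares of all tested genes called lower were 1.64% (Fip200 KO), 6.94% (Atg5 KO) and 6.81% (Atg7 KO), and those called higher 0.347%, 4.31% and 3.29%. Epas1, a hypoxia-inducible factor, was called lower in Fip200 KO (log2 fold change -1.19, adjusted p = 0.0867) and Atg7 KO (-1.71, adjusted p = 0.0246), and Foxc2, a forkhead factor of lymphatic and arterial development, in Atg5 KO (-2.37, adjusted p = 0.0799) and Atg7 KO (-1.86, adjusted p = 0.0072 from limma). Acvrl1, the endothelial BMP receptor, was called higher in Atg5 KO (1.09, adjusted p = 0.0186) and also Atg7 KO (1.13, adjusted p = 0.0595), and Unc5b, a netrin receptor of tip cells, lower in Atg7 KO (-1.02, adjusted p = 0.0328 from limma). Of 3 tested venous genes besides Ephb4, 0 were called in any KO, and Nr2f2, the venous transcription factor, had log2 fold changes of -0.02, 0.11 and -0.49. Among 7 tested ephrins and Eph receptors, 0 were called in Atg5 KO, and in Atg7 KO Efna1 (-1.54, adjusted p = 0.0234), Efna3 (-1.47, adjusted p = 0.0197) and Efna4 (-1.20, adjusted p = 0.0376 from limma) were called lower. In Fip200 KO 0 of 6 were called.

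Of 9 tip and stalk cell genes, Flt1, the VEGF receptor that sequesters its ligand, was called lower in Fip200 KO (log2 fold change -3.66, adjusted p = 0.0995) and Atg7 KO (-2.99, adjusted p = 0.0196 from limma). It was at 23.3, 16.1 and 34.1 RPKM in control, 0.145, 1.12 and 5.99 RPKM in Fip200 KO, 12.1, 15.9 and 2.21 RPKM in Atg5 KO and 4.66, 3.56 and 0.804 RPKM in Atg7 KO libraries. Every KO library was below the lowest control library, and Flt1 was not called in Atg5 KO (-1.54, adjusted p = 0.122 from limma). Taking 1 KO at a time, 12.4% (Fip200 KO), 22% (Atg5 KO) and 20.4% (Atg7 KO) of all tested genes lay below control without overlap. The share for the KO groups together was not counted, and they share the same controls. Apln, the apelin ligand, was called higher in Atg5 KO (2.17, adjusted p = 0.0444) and Atg7 KO (2.15, adjusted p = 0.0624), and Kdr, the main VEGF receptor, in Atg5 KO (1.35, adjusted p = 0.0878 from limma). The Epas1 and Flt1 calls in Fip200 KO were both lost without any 1 library other than Fip200 KO replicate 3, with adjusted p up to 0.495 and 0.490. Of 9 other settings, Epas1 lost its call in 3 and Flt1 in 5, with adjusted p up to 0.556 and 0.453. In Atg5 KO, Foxc2 lost its call in 4 of these settings and Acvrl1, Apln and Kdr in 2 each, with adjusted p up to 0.503, 0.205, 0.233 and 0.120. With single libraries left out in Atg5 KO, Foxc2 was lost without any 1 control library, Acvrl1 without control replicate 2, Apln without KO replicate 1 or 2, and Kdr without control replicate 2 or 3 or KO replicate 1 or 2, with adjusted p up to 0.171 for Foxc2, 0.129 for Apln and 0.210 for Kdr, and for Acvrl1 on the fold alone (log2 fold change 0.86, adjusted p = 0.0326 from limma). In Atg7 KO, Flt1, Foxc2 and Efna3 stayed called with each library left out, Efna1 and Epas1 were lost without control replicate 3, Efna4 without that library or KO replicate 1, Unc5b without that library or KO replicate 1 or 2, Acvrl1 without control replicate 2 or 3 or KO replicate 1 or 3, and Apln without control replicate 2 or 3 or any KO library. The highest adjusted p of these was 0.1003, 0.103, 0.142, 0.127, 0.171 and 0.128. With all 12 libraries in 1 fit, Foxc2 (adjusted p = 0.235), Apln (0.180), Unc5b (0.119) and Efna4 (0.111 from limma) also lost their calls in Atg7 KO, and so did Apln with the replicate block (0.131) and, on the fold alone, Unc5b and Maml2 with a pseudocount of 1. With the set as a term, which rests on Atg5 KO replicate 3 for set 3, each gene of these lists called in Atg7 KO lost its call, and Foxc2 turned to 1.54 (adjusted p = 0.791), Unc5b to 0.27 (adjusted p = 0.918) and Flt1 moved to -0.58 (adjusted p = 0.927 from limma). Atg7 itself, the targeted gene, also lost its call (log2 fold change -1.93, adjusted p = 0.589 from limma). Over all genes 38 were called, where 1191 were called without the term. A lost call under this setting therefore does not tell a changed gene from an unchanged one.

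**Figure D5:**
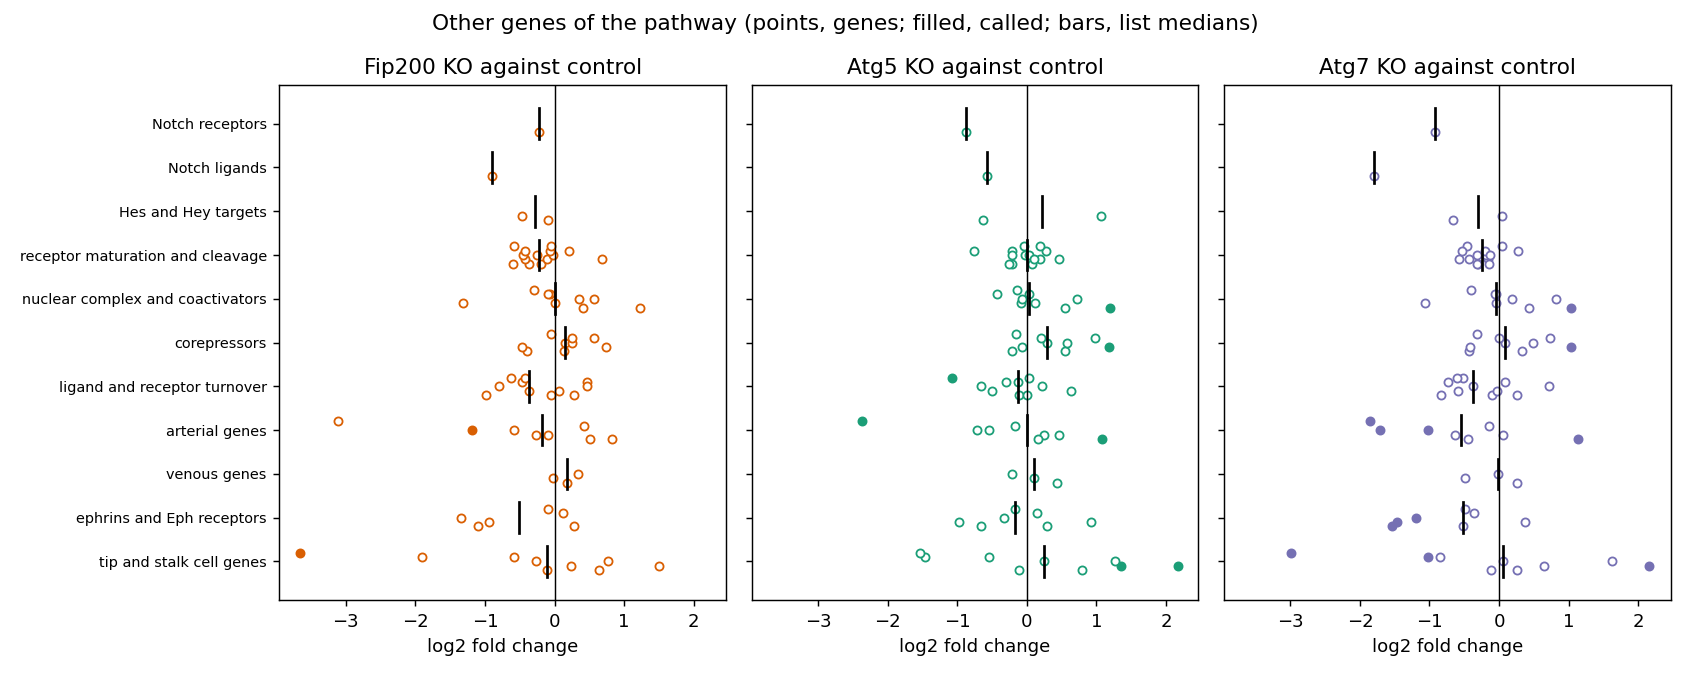
Log2 fold change (horizontal axis) of the tested genes of 11 lists, without the 10 members, in each KO against control, with a point per gene, filled where called, and a bar at the list median. The Notch lists hold few filled points, Maml2, Ctbp1 and Numbl, and Flt1 in Fip200 KO lies at -3.66.

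For 9 members the 2 genes with the most similar pattern were found among 10092 genes with a mean of at least 2 RPKM, by the correlation of log2 of RPKM plus 0.5 over the 12 libraries, which share their depth and group differences. Ephb4 was most like Tie1, an endothelial receptor kinase (Pearson r 0.89, Spearman rho 0.92), and Notch4 most like Ppp6r3 (0.95 and 0.94) and Creb3l2 (0.95 and 0.96). Notch1 was most like Gimap5 (0.95 and 0.87), Dll4 most like Tax1bp3 (0.91 and 0.88) and the endothelial transcription factor gene Ets1 (0.89 and 0.87), Jag1 most like Phf7 (0.97 and 0.97), Jag2 most like Trmt10b (0.93 and 0.87), Hes1 most like Serf1 (0.91 and 0.87), Hey1 most like Pcbp3 (0.94 and 0.90) and Efnb2 most like Tbc1d12 (0.88 and 0.85). Between the members, Notch1 and Notch4 had a Pearson r of 0.81 and a Spearman rho of 0.69, and Notch4 and Dll4 0.73 and 0.76. With the group means removed the r of these pairs was 0.68 and 0.85. Jag1 and Dll4 had an r of -0.52 and a rho of -0.29. These values describe 12 libraries and carry no test.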

How the data were processed

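RNA-sequencing of 12 libraries of 562 cells was re-analysed. Per the sources used here, TopHat2 served for alignment and edgeR for the comparison by the authors, who deposited 3 tables, each with 1 KO against the same control libraries. The genome build and the versions are not given in the sources used here. The values used are RPKM that the authors deposited for each library. The unit was read from the values, and the whole reads behind them were recovered for 14851 of 14851 genes, 20 of which had no reads. The group mean, fold change and p-value columns of the authors' own comparisons were not used. RPKM were tested by limma 3.58.1 in R 4.3.3 on log2 of RPKM plus 0.5, for genes of at least 0.5 RPKM in at least 3 compared libraries, with eBayes along the trend of level. Each KO was fitted with the 6 libraries of its comparison and the KO groups with all 12. Calls needed an adjusted p no higher than 0.1 with a log2 fold change of 1 or more in either direction. The fit was tested on simulated data. Libraries without overlap were given the exact two-sided permutation p.

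Groups were taken from the sample titles. The genes named are the 10 members, list genes called in a KO (at most 3 lowest and 3 highest per list and KO) or defining a cell type, the targeted genes, and the genes most like each member. Some list genes named without a call and the counts of members and of other pathway genes by the adjusted p alone were chosen after their values were seen. The members and lists were chosen with earlier results of these data known. The levels are precise to the counting error of 17264989 to 23627944 reads per library, which covers no other error. Atg5 KO replicates 1 and 2 differed by a chi-square of 8.19 per degree of freedom and all other replicate pairs by 48.5 or more. All were above sampling noise, and each library was counted once. Whether Atg5 KO replicates 1 and 2 are repeat preparations of 1 sample was not tested. Promoters came from RefSeq on GRCm38.p6. Alternatives were pseudocounts of 0.1 and 1, no filter, a filter at 2 RPKM, median-of-ratios scaling, no trend, all 12 libraries in 1 fit, the library-name set as a term, a replicate block and each library left out. Python 3.11.15, numpy 2.4.6, pandas 2.3.3 and matplotlib 3.10.9 were used.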

Additional observations from a re-analysis of the deposited data

How the results depend on the processing

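The count of members called in Atg5 KO, 1 with the settings used, was 0 with no filter on low values, with median-of-ratios scaling and with all 12 libraries in 1 fit, and 0 to 3 with each library left out. It stayed at 0 in Fip200 KO, in Atg7 KO and between KO groups in every alternative run. Members past the adjusted p alone in Atg5 KO numbered 3, and 1 with no filter, median-of-ratios scaling, all 12 libraries or the library-name set as a term, and 1 to 4 with each library left out, while 0 to 1 passed in Atg7 KO when a library was left out. Other Notch pathway genes called numbered 1 in Fip200 KO with all 12 libraries in 1 fit, 1 in Atg7 KO with a pseudocount of 1 and 0 with the set as a term, and with each library left out 1 to 5 in Atg5 KO and 0 to 3 in Atg7 KO. Over all genes, the calls in Fip200 KO were 234, and 146 with no filter, 93 with the replicate block, 608 with all 12 libraries, 47 with the set as a term and 0 to 598 with each library left out. The calls in Atg5 KO were 1331, and 663 with the set as a term, and 985 to 1502 with each library left out. The calls in Atg7 KO were 1191, and 38 with the set as a term, and 576 to 1514 with each library left out. The 0 calls in Fip200 KO came without control replicate 2 or 3.

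With the library-name set as a term the log2 fold change turned in direction for Notch1 (-0.096), Notch4 (-0.11) and Jag2 (-0.29) in Fip200 KO, for Hes1 (0.048), Hey1 (0.00084) and Efnb2 (0.65) in Atg5 KO, and for Dll4 (2.62), Hes1 (1.69), Hey1 (0.60), Foxc2 (1.54) and Unc5b (0.27) in Atg7 KO. In set 1 control replicate 1 is the only control, so the Fip200 KO estimate of this fit is against that library. The Atg5 KO estimate compares replicates 1 and 2 with control replicates 2 and 3, all of set 2. That of Atg7 KO also passes through Atg5 KO replicate 3. Why these libraries differ was not tested. With a library left out the log2 fold change turned within these ranges, namely for Dll4 from -0.92 to 0.47 in Fip200 KO and -0.90 to 0.55 in Atg7 KO, for Hes1 from -1.14 to 0.24, Hey1 from -0.53 to 0.080, Efnb2 from -0.24 to 0.38 and Ephb4 from -0.094 to 0.60 in Atg5 KO, and for Efnb2 from -0.14 to 0.46 in Atg7 KO.

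The replicate numbers do not pair the libraries, since the deviations of 18 same-numbered pairs correlated from -0.50 to 0.25, with 2 pairs over 0.1. The replicate block changed the Fip200 KO count as above and no count of members called. With 3 libraries per group the precision differed between members, and the widest 95% interval of a KO against control, that of Dll4 in Atg5 KO, spanned 3.90 log2 units, and that of a KO against another KO, also of Dll4, 4.21.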
